A study of Homo sapiens with 4 samples.

Results

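The TRIM genes encode tripartite motif proteins, most of them RING-type ubiquitin ligases. Members were the protein-coding genes of the deposited count table whose symbol starts with TRIM followed by a number, which gave 78 of 48162 genes. RNA was sequenced from cells named as MDA-MB-453, an established human breast cancer line. There were 2 wild-type libraries (WT) and 2 libraries with a knockdown of TMEM9 (TMEM9 KD), and no other treatment or time is labelled. The sources used here do not give how TMEM9 was reduced, nor whether replicate libraries stem from different cultures. The p-values therefore measure the spread between libraries, and that spread may be technical. TMEM9 is a membrane protein of endosomes and lysosomes.

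A TRIM protein carries a RING domain, 1 or more B-box zinc-binding domains and a coiled coil, followed by a C-terminal part that differs between members and sets what the protein binds. The most common C-terminal part is the SPRY domain, found in antiviral members such as TRIM5, which recognises retroviral capsids, and TRIM25, which ubiquitinates the RNA sensor RIG-I. Members with a PHD finger and a bromodomain act on chromatin, and several TRIM genes are induced by interferon.

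Library totals ran from 15323843 to 18517337 counts. TMEM9 itself had 1120 and 1497 counts in WT and 51 and 78 in TMEM9 KD, a log2 fold change of -4.37 (SE 0.13, edgeR quasi-likelihood adjusted p = 4.12e-52). Of 11 markers of luminal and apocrine breast cancer, KRT8, KRT18, XBP1 and ERBB2 were well above 0 in every library, while PIP had no count and SPDEF and AGR2 had at most 3 counts in a library. FOXA1 and GATA3, transcription factors of luminal cells, had 2.83 ± 0.153 and 2.56 ± 0.784 CPM in WT (SD, n = 2) and 7.88 ± 0.521 and 6.37 ± 0.631 CPM in TMEM9 KD. Markers of other cell types also moved between the groups. The 6 basal epithelial markers summed to between 273 and 279.9 CPM in WT and between 134 and 141 CPM in TMEM9 KD. Of these, 5 were lower and 1, SFN, was higher, where 29% of all genes tested were lower and 28.7% higher. In their means, TP63 went from 155 to 32.5 CPM and SFN from 91.4 to 103.6 CPM. KRT5 and KRT14 were at 0 in both knockdown libraries, and KRT5 had only 15 counts in each WT library. With KRT5, KRT14 and KRT6A at or close to 0 in TMEM9 KD, their place among the lower markers is a description. The 9 fibroblast markers summed to between 2076 and 2110.2 CPM in WT and between 1536 and 1706 CPM in TMEM9 KD. Of the 8 tested, 4 were higher and 4 lower, where 28.7% of all genes tested were higher and 29% lower. LUM, among the higher, had 0 and 2 counts in WT and passed the filter on low counts only through TMEM9 KD. Its place there is a description. COL3A1 went from 957 to 31.1 CPM and COL1A1 from 824 to 1387 CPM in their means. The 12 leukocyte markers summed to at most 13.7 CPM in any library, with CD3E, MS4A1 and LYZ at 0 in all 4, and the 4 endothelial markers to at most 1.49 CPM. The 8 photoreceptor markers, included because the series text calls the profiles retinal, summed to at most 15.3 CPM in any library. Mitochondrial transcripts took 3.98% of the counts in both WT libraries and 3.18% and 2.83% in TMEM9 KD. The part of these differences in the TRIM values was not tested. In WT, COL3A1, COL1A1 and TP63 stood far above the luminal factors FOXA1 and GATA3, while KRT8 and XBP1 were high as well. The name of the line comes from the sources used here, and the identity of the cells was not tested.

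Of the 78 TRIM genes, 18 had no count in any library and 35 did not pass the filter on low counts. The 43 that passed are those tested below, and levels are in CPM, counts divided by the library size after TMM scaling. In such bulk RNA, fewer cells that express a gene and less RNA per cell cannot be told apart. In TMEM9 KD, 16 of the 43 were higher and 11 lower at an adjusted p below 0.05, and 16 did not pass. Over all 14923 genes tested, 28.7% were higher and 29% lower, 57.7% in all, against 37.2%, 25.6% and 62.8% of the tested TRIM genes. Most changes were small. Past the threshold and at least 2-fold, 1 TRIM gene was higher (2.33%, against 7.24% of all genes) and 5 were lower (11.6%, against 10.1%). The median log2 fold change was 0.10 for the TRIM genes and 0.01 for all genes, and the median absolute change was 0.32 and 0.38. Against a change of 1.5-fold, TRIM58 and TRIM25 were higher and 7 genes were lower, namely TRIM46, TRIM22, TRIM16L, TRIM32, TRIM59, TRIM13 and TRIM16, with 7.44% and 11.3% of all genes called in these directions. In 34 of the 43 genes (79.1%) the WT and TMEM9 KD libraries did not overlap, against 77.6% of all genes. All genes here include those that are not protein-coding, unlike the TRIM genes. Of 12699 protein-coding genes tested, 60.7% were called, and the groups did not overlap in 10096. Their median absolute change was 0.35.

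**Figure D1:**
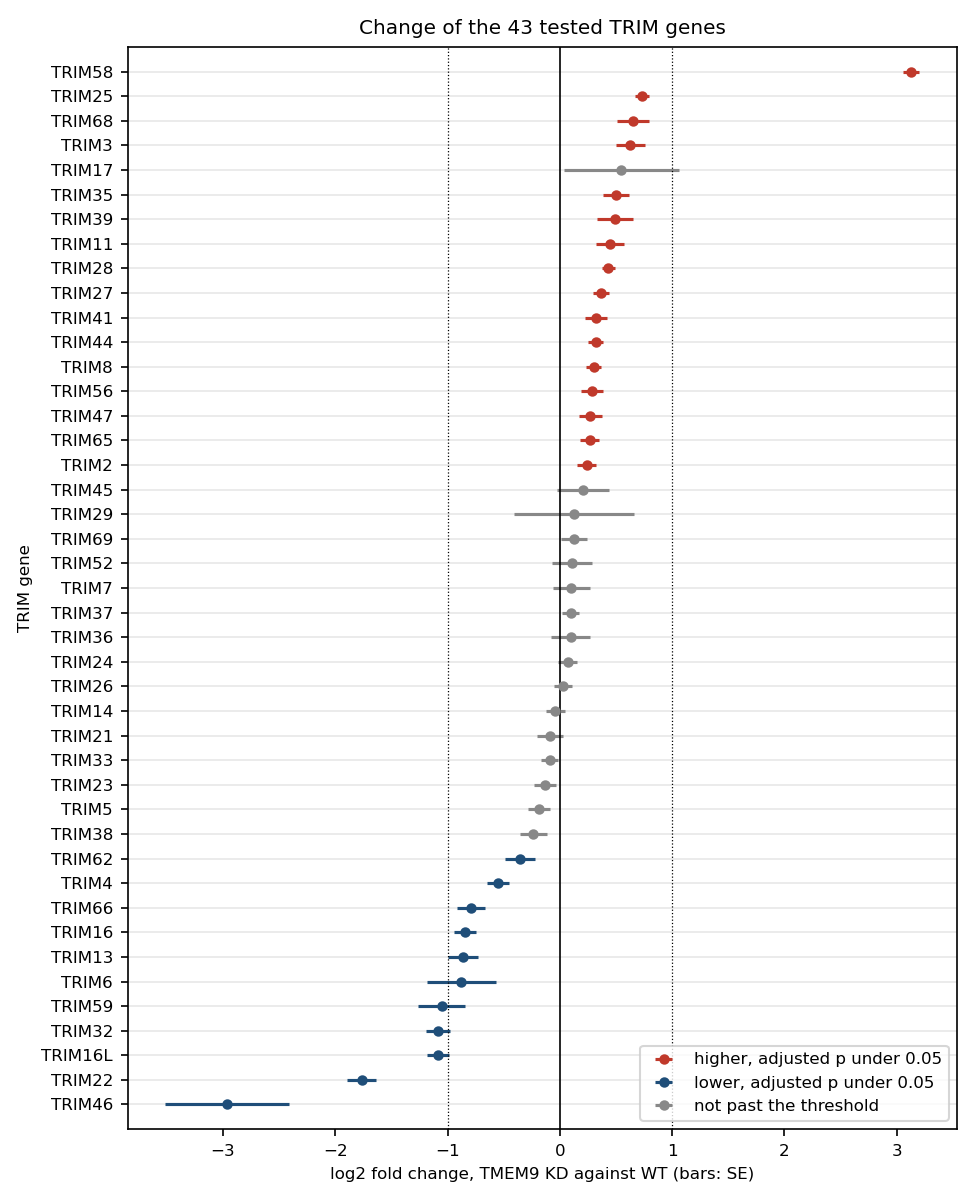
Fitted log2 fold change of TMEM9 KD against WT for the 43 tested TRIM genes, with bars of 1 SE, coloured by the edgeR call at an adjusted p of 0.05; dotted lines mark 2-fold. TRIM58 stands alone at 3.13 on the right, TRIM46 and TRIM22 lie farthest left, and the other called genes lie between -1.08 and 0.73.

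TRIM58 rose most. The protein is a ubiquitin ligase known from late red cell precursors, where it promotes the loss of the motor protein dynein. It had 501 and 571 counts in WT and 4482 and 5171 in TMEM9 KD, or 33.5 and 31.8 CPM against 274 and 296 CPM. Both knockdown libraries thus lay far above both wild-type libraries. The log2 fold change was 3.13 (SE 0.07, edgeR adjusted p = 2.4e-59), a fold of 8.74, and 3.3% of all tested genes had a larger absolute change. Leaving out any library gave between 3.06 and 3.19. Per kilobase of exon, TRIM58 went from the 10th level among the tested TRIM genes in WT (10.1 CPM per kb) to the 2nd in TMEM9 KD (88.4 CPM per kb), behind TRIM28. The olfactory receptor gene OR2W3, the next expressed protein-coding gene in GENCODE 29 order, had 81 and 74 counts in WT and 520 and 553 in TMEM9 KD (log2 fold change 2.75, SE 0.15, adjusted p = 1.3e-31). On the other side, GCSAML had 0.752 ± 0.355 CPM in WT and 0.800 ± 0.0780 CPM in TMEM9 KD and did not pass. Whether reads were shared between TRIM58 and OR2W3 was not tested.

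The promoter window of TRIM58 is shown because this gene moved most. It spans 250 bases before to 50 after the start in RefSeq, on build GRCh38.p14, plus strand, chr1:247856937-247857236, with each CpG, the dinucleotide that DNA methylation acts on, in capitals.
TRIM58: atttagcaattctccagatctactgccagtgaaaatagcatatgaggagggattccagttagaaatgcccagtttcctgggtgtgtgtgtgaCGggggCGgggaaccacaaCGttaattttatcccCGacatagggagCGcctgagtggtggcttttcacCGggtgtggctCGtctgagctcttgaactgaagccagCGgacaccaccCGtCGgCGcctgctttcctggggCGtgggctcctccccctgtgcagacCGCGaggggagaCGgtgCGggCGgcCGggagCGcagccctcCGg
It holds 20 CpG and is 60.3% G or C. Among 22199 such windows of protein-coding genes, the median was 21 CpG and 62.3%, and methylation was not measured here.

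TRIM25 was the next highest. It had 129 and 131 CPM in WT and 213 and 219 CPM in TMEM9 KD, with the groups apart. The log2 fold change was 0.73 (SE 0.06, edgeR adjusted p = 1.23e-18), a fold of 1.66. TRIM25 overlaps C17orf67 on the same strand and DGKE on the opposite strand in GENCODE 29, and both were also higher (log2 fold changes 1.66 and 0.48). The sources used here do not state the strand setting of the counting, so reads of overlapping genes cannot be told apart.

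TRIM28, the corepressor that KRAB zinc finger proteins recruit to silence retroelements, was the most abundant member per kilobase, at 105 CPM per kb in WT and 141 CPM per kb in TMEM9 KD. It had 419 and 426 CPM in WT and 540.5 and 600.1 CPM in TMEM9 KD (log2 fold change 0.43, SE 0.05, edgeR adjusted p = 4.79e-11). The other chromatin members did not share this rise. TRIM66, which lacks the RING domain, went down from 23.3 ± 1.09 to 13.5 ± 1.40 CPM (log2 fold change -0.79, adjusted p = 6.81e-08). TRIM66 overlaps the abundant ribosomal protein gene RPL27A on the opposite strand, which had a log2 fold change of -0.02 (adjusted p = 0.811). TRIM24, a histone reader and coregulator of nuclear receptors, had 48.8 ± 1.64 CPM in WT and 51.3 ± 3.66 CPM in TMEM9 KD. TRIM33, which acts on SMAD signalling, had 83.1 ± 8.02 and 78.4 ± 4.84 CPM. Neither passed the threshold (edgeR adjusted p = 0.502 and 0.327), and their libraries overlapped. Among 16 partners of TRIM28 in heterochromatin and SUMO modification, 4 rose and 4 fell, with a median log2 fold change of 0.00. With 28.7% of all genes higher and 29% lower, this count is near the background. On the log2 scale, MPHOSPH8, a reader of methylated histone H3, dropped by 0.92 and the ATPase CHD3 dropped by 0.49. MORC2, an ATPase of the same silencing pathway, rose by 0.49.

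**Figure D2:**
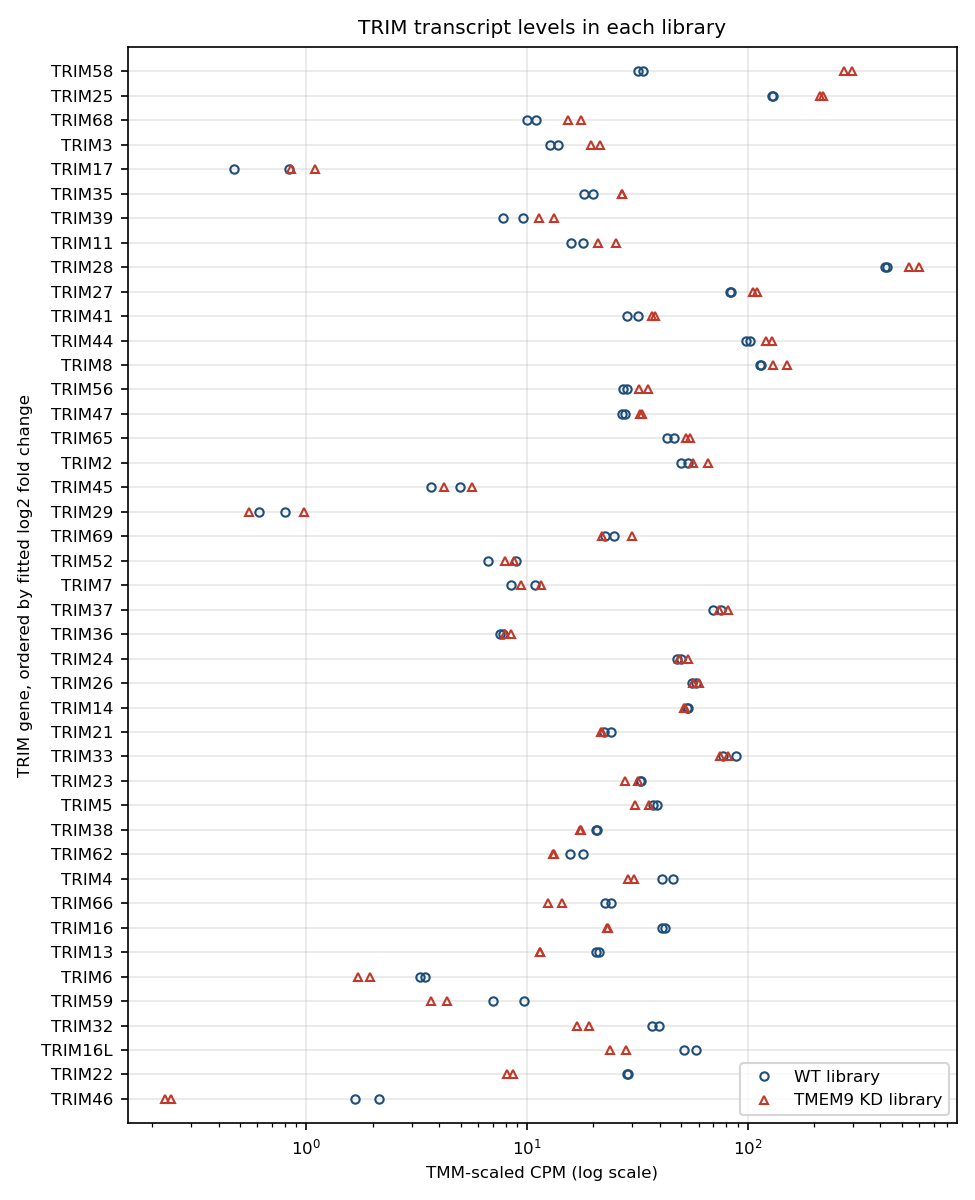
TMM-scaled CPM on a log axis of each tested TRIM gene in the 2 WT libraries (circles) and the 2 TMEM9 KD libraries (triangles), ordered by fitted log2 fold change. The libraries of a group lie close together, TRIM28 is the highest in CPM in all 4 libraries, and TRIM46 falls from 1.67 and 2.14 CPM to under 0.25 CPM.

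TRIM46 organises microtubules at the start of the axon in neurons. It had 32 and 30 counts in WT and 4 in each TMEM9 KD library, so the gene was near 0, under 10 counts in each library, in TMEM9 KD and passed the filter only through WT. Having passed in this way, it had to differ, so its call and its place among the lower genes counted above are a description. The fitted log2 fold change, which depends on the few counts in TMEM9 KD, was -2.96 (SE 0.55, edgeR adjusted p = 2.52e-06), and leaving out any library gave between -3.14 and -2.79. Its neighbours KRTCAP2 and MUC1 had log2 fold changes of -0.26 and -0.48, of which the first passed the threshold (adjusted p = 0.00704) and the second did not (0.0733). Of the other microtubule-binding members, TRIM36 had 7.67 ± 0.163 CPM in WT and 8.21 ± 0.381 CPM in TMEM9 KD and did not pass (adjusted p = 0.659). TRIM9 had 0 counts in WT and 7 and 4 in TMEM9 KD, 3.57-fold higher when the WT group is set to a floor of 3 counts in all. That fold takes the TMEM9 KD counts as exact. TRIM67 had none.

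TRIM22, an interferon-induced antiviral member, fell from 28.8 and 28.4 CPM in WT to 8.12 and 8.65 CPM in TMEM9 KD. The groups were far apart (log2 fold change -1.77, SE 0.13, edgeR adjusted p = 5.17e-22), a fold of 3.4. TRIM22 lies in a cluster with TRIM6, TRIM34 and TRIM5 on chromosome 11, and its annotated span overlaps that of TRIM5 on the opposite strand. The members of the cluster moved differently. TRIM6 went down from 3.36 ± 0.122 to 1.83 ± 0.168 CPM (log2 fold change -0.88, adjusted p = 0.0123). TRIM5 had 38.0 ± 1.07 and 33.3 ± 3.31 CPM and did not pass (log2 fold change -0.19, adjusted p = 0.0884), but did without TMEM9_KD replicate 1 (adjusted p = 0.0129). TRIM34 was near 0 in both groups, with 0 and 2 counts in WT and 1 and 4 in TMEM9 KD, a ratio of 2.43 (exact 95% counting interval 0.398 to 25.6).

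Of the 10 members linked to interferon by earlier knowledge, 9 were tested. TRIM22 fell, TRIM25 and TRIM56 rose, and 6 did not pass, with a median log2 fold change of -0.04. This was 33.3% called, against 57.7% of all genes (28.7% higher and 29% lower). TRIM56, which acts in nucleic acid sensing, rose from 27.8 ± 0.903 to 33.9 ± 2.36 CPM (log2 fold change 0.29, adjusted p = 0.012). TRIM21, a cytosolic antibody receptor, had 23.2 ± 1.12 CPM in WT and 21.8 ± 0.227 CPM in TMEM9 KD, with a log2 fold change of -0.09 (SE 0.11). TRIM14, an adaptor of mitochondrial antiviral signalling that lacks the RING domain, had 53.3 ± 0.653 and 51.8 ± 0.253 CPM, with -0.04 (SE 0.08). TRIM26 had 57.4 ± 1.66 and 58.6 ± 2.74 CPM, with 0.03 (SE 0.08). TRIM38, a regulator of Toll-like receptor signalling, had 20.7 ± 0.280 and 17.6 ± 0.126 CPM, and its groups did not overlap, but it did not pass (-0.24, SE 0.12, adjusted p = 0.0913). TRIM69 had 22.5 and 24.8 CPM in WT and 29.8 and 21.9 CPM in TMEM9 KD, overlapping, and passed only without TMEM9_KD replicate 2 (adjusted p = 0.0134).

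Other interferon-stimulated genes fell in 21 of 26 tested and rose in 1, USP18, where 29% of all genes fell and 28.7% rose. Their median log2 fold change was -1.63, against 0.01 over all genes. OASL, which boosts RNA sensing, had 78.5 ± 0.203 CPM in WT and 3.29 ± 0.442 CPM in TMEM9 KD. XAF1, a partner of the apoptosis inhibitor XIAP, had 121 and 132 counts in WT and 2 and 1 in TMEM9 KD. RSAD2, the antiviral enzyme viperin, had 64 and 65 counts in WT and 0 in both TMEM9 KD libraries, so its fitted change in the plot of lists is no bound. XAF1 and RSAD2 were near 0 in TMEM9 KD and passed the filter only through WT. Their place among the 21 is thus a description. Among 12 genes of nucleic acid sensing and interferon induction, 6 fell and 2 rose (median -0.33), where 29% of all genes fell and 28.7% rose. STING1, the adaptor of cytosolic DNA sensing, fell by 3.79 on the log2 scale, RIGI, the substrate of TRIM25, by 1.14, and DHX58, a relative of RIGI, by 0.78. The difference between these lists and the TRIM genes was not tested.

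**Figure D3:**
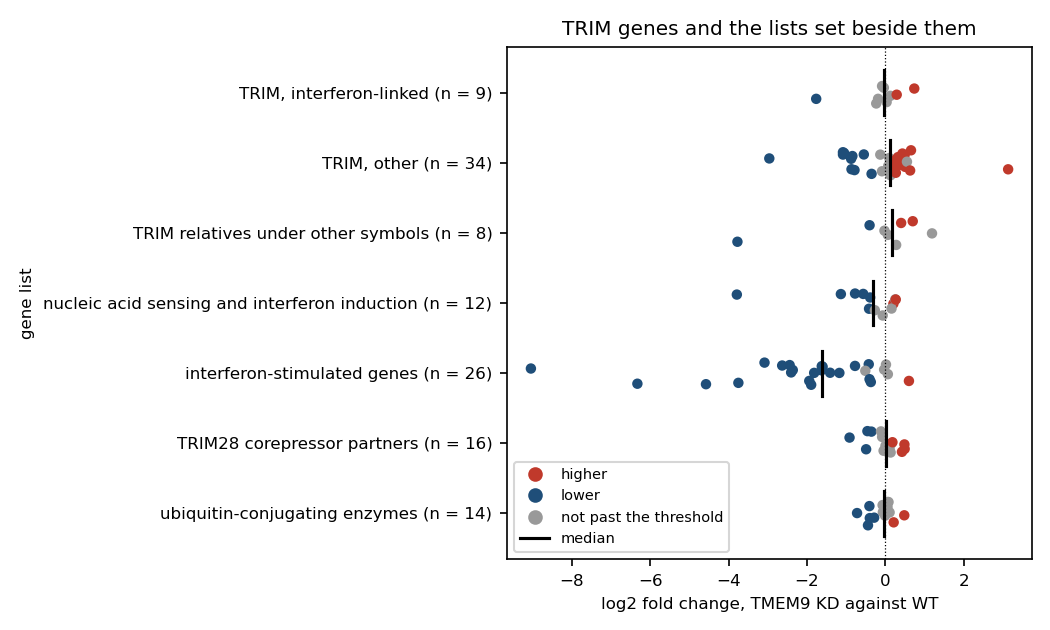
Log2 fold change of TMEM9 KD against WT of each tested gene (points, coloured by call, with vertical jitter) in the interferon-linked and the other TRIM genes and in 5 lists set beside them, with the median as a bar. Interferon-stimulated genes lie mostly left of 0 with a median of -1.63, while 9 interferon-linked TRIM genes have a median of -0.04.

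Promoter windows were available in RefSeq for 62 of the 78 TRIM genes, 82 windows in all, among them 9 of the interferon-linked genes. TRIM22, TRIM28 and TRIM16L had no entry. They were searched on both strands for the core of the interferon-stimulated response element, which is GAAA, any 2 bases and GAAA again, or TTTC, any 2 bases and TTTC on the other strand, and overlapping matches were allowed. A match lay in 10 of the 82 TRIM windows (12.2%) and in 3.17% of the 22199 windows of all protein-coding genes. The median G or C content was 56.2% in the TRIM windows and 62.3% in all, and its part in these shares was not tested. Of the 9 interferon-linked genes, 6 held a match. These stretches are shown because they hold a match and their genes did not pass the threshold or, for TRIM34, were near 0. They are on GRCh38.p14 at chr11:5685067-5685126, chr9:98119214-98119273, chr11:4393663-4393692 and chr6:30213563-30213622 on the minus strand, and chr11:5624886-5624945 and chr15:44736441-44736500 on the plus strand. Capitals mark the match.
TRIM5: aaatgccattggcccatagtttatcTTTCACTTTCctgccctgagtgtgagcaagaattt
TRIM14: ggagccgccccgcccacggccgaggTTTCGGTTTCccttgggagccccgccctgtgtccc
TRIM21: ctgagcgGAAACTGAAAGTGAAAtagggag
TRIM26: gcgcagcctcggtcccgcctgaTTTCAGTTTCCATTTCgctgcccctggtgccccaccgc
TRIM34: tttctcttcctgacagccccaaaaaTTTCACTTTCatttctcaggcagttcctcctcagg
TRIM69: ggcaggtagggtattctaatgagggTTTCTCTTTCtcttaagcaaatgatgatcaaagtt
In TRIM21 and TRIM26 a pair of matches overlap. TRIM25, TRIM38 and TRIM56 held no match in this window. Outside the interferon-linked group, TRIM2, TRIM16, TRIM44 and TRIM64C held 1 each. A match is a run of letters and was not tested as a binding site.

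TRIM16 and its partial copy TRIM16L fell together. TRIM16, which lacks the RING domain, is known to act with galectin-3 in the clearance of damaged lysosomes. It went from 41.1 and 42.0 CPM in WT to 23.3 and 23.0 CPM in TMEM9 KD (log2 fold change -0.84, SE 0.10, edgeR adjusted p = 4.7e-12). TRIM16L went from 51.3 and 58.5 CPM to 23.9 and 28.0 CPM (log2 fold change -1.08, SE 0.10, adjusted p = 6.23e-18). In both genes all knockdown values lay below all wild-type values. Reads of these similar sequences may have been split between them. The nearest expressed protein-coding genes also fell on either side of each gene, namely TVP23C and ZNF286A beside TRIM16 (log2 fold changes -1.11 and -1.17) and ZNF286B and TVP23B beside TRIM16L (-0.91 and -1.13). These neighbours are themselves copies of one another.

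TRIM32, a ligase with NHL repeats that is mutated in a limb-girdle muscular dystrophy, went down from 39.6 and 36.7 CPM to 16.9 and 19.02 CPM (log2 fold change -1.08, SE 0.11, edgeR adjusted p = 2.59e-15). The other NHL members that could be tested went up. TRIM3, a brain-enriched relative, rose from 13.3 ± 0.734 to 20.5 ± 1.37 CPM (log2 fold change 0.63, adjusted p = 1.85e-05), and TRIM2, which ubiquitinates neurofilament light chain, from 51.7 ± 2.55 to 61.1 ± 6.74 CPM (0.24, adjusted p = 0.0106). TRIM71, the stem cell member of this class, had 3 counts in 1 TMEM9 KD library and none elsewhere. The class thus held changes in both directions.

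Both members with a transmembrane segment fell, where 29% of all genes tested were lower. TRIM13, anchored in the endoplasmic reticulum, went down from 20.9 ± 0.563 to 11.4 ± 0.0578 CPM (log2 fold change -0.87, SE 0.13, edgeR adjusted p = 1.98e-08). Its antisense gene DLEU2 had a log2 fold change of -0.24 and did not pass (adjusted p = 0.238). TRIM59 had 9.70 and 7.01 CPM in WT and 4.34 and 3.67 CPM in TMEM9 KD (log2 fold change -1.05, SE 0.21, adjusted p = 7.8e-06). The larger of its knockdown values lay below the smaller wild-type value, although the WT libraries were spread. TRIM59 overlaps SMC4, a condensin gene on the opposite strand with 468 CPM in WT, which had a log2 fold change of 0.04 (adjusted p = 0.541).

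The remaining SPRY members that passed moved less. TRIM68 rose from 10.5 ± 0.715 to 16.4 ± 1.58 CPM (log2 fold change 0.65, edgeR adjusted p = 5.41e-05). TRIM35 rose by 0.50, TRIM39 by 0.49, TRIM11 by 0.44, TRIM27 by 0.37, TRIM41 by 0.32, TRIM47 by 0.27 and TRIM65 by 0.26 on the log2 scale. TRIM27, first found as a fusion partner of the RET kinase, had 83.5 and 83.9 CPM in WT and 106 and 110.2 CPM in TMEM9 KD. TRIM65, which ubiquitinates the RNA sensor MDA5, had 44.8 ± 2.25 and 53.7 ± 1.92 CPM. TRIM39 overlaps the antisense gene HCG18, which was also higher (log2 fold change 0.61). TRIM4 fell from 43.4 ± 3.75 to 29.6 ± 1.17 CPM (-0.55, adjusted p = 5.92e-07). TRIM62, described as a regulator of polarity in breast epithelium, fell from 16.8 ± 1.59 to 13.2 ± 0.113 CPM (-0.35, adjusted p = 0.0202).

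Among members without a named C-terminal domain, TRIM8 and TRIM44 were abundant and rose a little. TRIM8, a regulator of cytokine signalling, had 115 and 113 CPM in WT and 131 and 151 CPM in TMEM9 KD (log2 fold change 0.30, SE 0.07, edgeR adjusted p = 7.85e-05), and 0.19 without TMEM9_KD replicate 2. TRIM44, which lacks the RING domain, had 103 and 98.0 CPM in WT and 129 and 122 CPM in TMEM9 KD (0.32, SE 0.07, adjusted p = 3.67e-05). TRIM29, a gene of basal and squamous epithelium, had 12 and 11 counts in WT and 9 and 17 in TMEM9 KD, and its libraries overlapped (0.13, SE 0.53, adjusted p = 0.855). TRIM52 had 7.79 ± 1.57 and 8.32 ± 0.585 CPM and did not pass (adjusted p = 0.636).

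Members of single-gene classes did not pass. TRIM37, which carries a MATH domain and acts on peroxisomes and centrioles, had 72.4 ± 4.16 CPM in WT and 77.6 ± 5.35 CPM in TMEM9 KD (log2 fold change 0.10, SE 0.08, edgeR adjusted p = 0.275). TRIM23, which carries an ARF-like GTPase domain, had 32.7 ± 0.335 and 29.8 ± 2.73 CPM (-0.13, SE 0.10). TRIM45 had 4.31 ± 0.903 and 4.91 ± 0.990 CPM (0.20, SE 0.23). TRIM7 (0.10, SE 0.16) and TRIM17 (0.55, SE 0.51), with SPRY domains, did not pass either. TRIM17 had 7 and 15 counts in WT and 14 and 19 in TMEM9 KD.

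Calls of 9 of the 27 members were lost in at least 1 run that left out a library. Such a run leaves 1 library in a group and has less power. Calls lost in it need not have rested on the library left out. Leaving out WT replicate 1 ended those of TRIM11, TRIM39, TRIM47 and TRIM56 (adjusted p = 0.0608, 0.143, 0.0843 and 0.0587). Leaving out WT replicate 2 ended those of TRIM2, TRIM6, TRIM41, TRIM47, TRIM56, TRIM62 and TRIM65 (0.231, 0.0851, 0.164, 0.178, 0.155, 0.252 and 0.187). Leaving out TMEM9_KD replicate 1 ended those of TRIM2, TRIM6 and TRIM39 (0.178, 0.0556 and 0.0599), and TMEM9_KD replicate 2 those of TRIM11, TRIM47 and TRIM56 (0.0603, 0.0556 and 0.111). TRIM2 had a log2 fold change of 0.13 without TMEM9_KD replicate 1, and TRIM11 of 0.29 without TMEM9_KD replicate 2. The changes of TRIM47 and TRIM56 were larger without WT replicate 1 (0.290 and 0.313) than in the full fit (0.270 and 0.287).

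Summed over all 78 genes, TRIM transcripts made up 1896 and 1904 CPM in WT and 2355 and 2433 CPM in TMEM9 KD. The groups were apart by 494 CPM in their means. Without TRIM58 the difference was 242 CPM, and without TRIM58 and TRIM28 it was 94.0 CPM, from 1445 ± 1.78 to 1539 ± 3.02 CPM. Most of the larger sum in TMEM9 KD was thus in these genes. Sums of CPM weight long transcripts more than short ones.

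**Figure D4:**
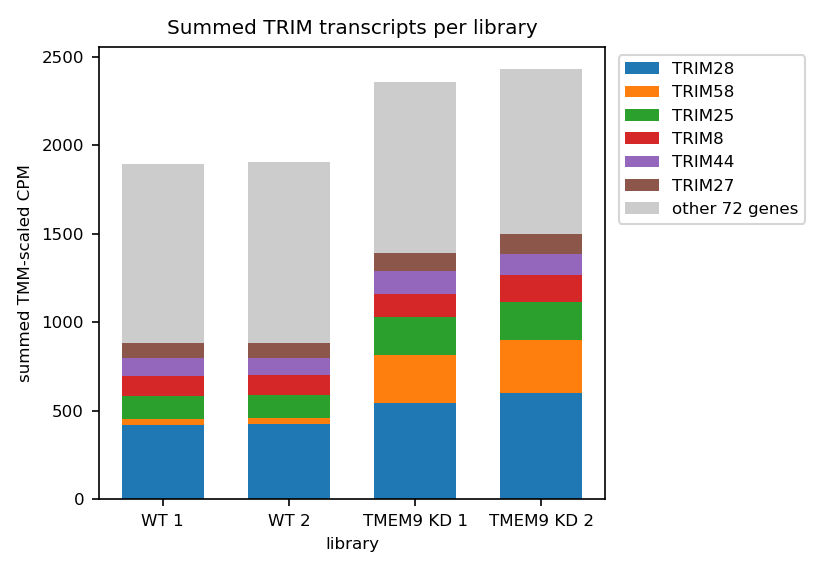
Summed TMM-scaled CPM of all 78 TRIM genes in each library, with the 6 genes that add most in TMEM9 KD shown as coloured segments and the rest in grey. The bars reach 1896 and 1904 CPM in WT and 2355 and 2433 CPM in TMEM9 KD, and the TRIM58 segment widens from 33.5 and 31.8 CPM to 274 and 296 CPM.

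A group was called near 0 for a gene where each of its libraries held under 10 counts. By this rule 34 TRIM genes were near 0 in both groups, 2 in TMEM9 KD alone and 0 in WT alone. The 2 were TRIM46 and TRIM73, which had 11 and 3 counts in WT and 3 and 6 in TMEM9 KD. The genes without any count included TRIM42, TRIM43, TRIM48, TRIM49 and its copies, TRIM60, TRIM61, TRIM67, TRIM75 and TRIM77, and the readthrough entries TRIM6-TRIM34 and TRIM39-RPP21. Such low counts do not show that a gene is silent, since a count of 0 allows up to 3 counts. Intervals cover counting error only. Floors cover it only in the group with 0 counts and take the counts of the other group as exact. The muscle RING finger genes were among the rare ones. TRIM55 had 3 and 8 counts in WT and 0 in both TMEM9 KD libraries, 3.77-fold lower with TMEM9 KD set to 3 counts in all. TRIM54 had at most 5 counts in a library and TRIM63 had 1 count in all. TRIM74, near-identical to TRIM73 and TRIM50, had 5 and 2 counts in WT and 0 in TMEM9 KD, 2.4-fold lower with the same floor. TRIM10 had 4 counts in 1 TMEM9 KD library and none elsewhere.

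Relatives of the family that carry other symbols are outside the rule. MEFV, the pyrin gene of familial Mediterranean fever, had 56 and 53 counts in WT and 4 in each TMEM9 KD library, so it too was near 0 there and passed the filter only through WT (fitted log2 fold change -3.77, edgeR adjusted p = 8.39e-11). PML, the scaffold of PML nuclear bodies, fell from 119 ± 0.379 to 90.1 ± 0.982 CPM. MID1, a microtubule-binding member mutated in Opitz syndrome, rose from 43.4 ± 2.42 to 70.3 ± 3.05 CPM (log2 fold change 0.70). Of 8 such relatives tested, 2 rose and 2 fell, or 50% called against 57.7% of all genes. Of 14 ubiquitin-conjugating enzymes, the partners from which RING ligases take ubiquitin, 2 rose and 5 fell, or 50% called against 57.7% of all genes, with a median log2 fold change of -0.04. UBE2D1, a common partner of TRIM ligases, fell by 0.72 on the log2 scale, UBE2L6, which conjugates ISG15, by 0.45, and UBE2E2 rose by 0.48.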

How the data were processed

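The authors deposited raw counts per Ensembl gene, with a column for each of the 4 libraries. The submitters' processing notes name the builds hg19 and mm8 and the tools Bowtie 0.12.2 and CASAVA, with no roles. The sources used here state no counting tool, annotation or strand setting. Symbols came from a table of gene IDs and GENCODE 29 (45342 of 48162 matched), and gene types, exon lengths and gene order from GENCODE 29, whose coordinates are not printed because the build differs. The counts were fitted with edgeR 4.0.16 in R 4.3.3 (TMM, filterByExpr with a minimum count of 10, quasi-likelihood F test with group as the only term, Benjamini-Hochberg over 14923 genes). An SE was obtained by dividing the size of a log2 fold change by the root of its F statistic. The common biological coefficient of variation was 0.0498 on 2 residual degrees of freedom. The fit was tested on simulated data. Libraries of a group differed by more than counting noise (chi-square over degrees of freedom 2.04 in WT and 4.82 in TMEM9 KD), and each was kept. DESeq2 1.42.0 and limma 3.58.1 served as alternatives. Genes named are those past the threshold by at least 2-fold, the most abundant per kilobase, the chromatin, NHL, MATH and interferon-linked classes, genes near 0 in 1 group and up to 3 per comparison list, with others named by their values. The members, classes and lists were chosen with earlier results of these data known.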

Additional observations from a re-analysis of the deposited data

How the results depend on the processing

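The replicate numbers of the labels did not pair the libraries (correlation of deviations 0.000474 between same-numbered libraries). With the replicate block, 16 TRIM genes were higher and 11 lower, as without it. Other scalings, filters and limma voom gave 16 or 17 higher and 9 to 12 lower, and DESeq2 12 and 9. With readthrough entries and near-identical copies left out, 16 were higher and 10 lower. Tested against 1.5-fold, 2 TRIM genes were higher and 7 lower, and 1111 and 1692 of all genes. Leaving out 1 library gave 11 to 14 TRIM genes higher and 9 to 11 lower, 3172 to 4173 of all genes higher and 3450 to 4405 lower, and TMEM9 between -4.67 and -4.14. Of the 27 called TRIM genes, 0 changed direction in any alternative run, 18 kept their call in every alternative other than the test against 1.5-fold, and 9 kept it there too. DESeq2 ended 6 calls, those of TRIM2, TRIM39, TRIM47, TRIM56, TRIM6 and TRIM62 (adjusted p from 0.0605 to 0.0972), and library size alone ended that of TRIM62 (0.0683) and gave one to TRIM37 (0.0457); the cause was not tested. Among genes not called, the sign turned for TRIM14 with library size only (0.033), and with 1 library left out for TRIM26 (-0.028 to 0.081), TRIM7 (-0.071 to 0.30), TRIM29 (-0.36 to 0.47), TRIM33 (-0.19 to 0.010), TRIM45 (-0.028 to 0.42), TRIM52 (-0.10 to 0.31) and TRIM69 (-0.11 to 0.32). Genes under about 20 counts per library, such as TRIM17 and TRIM29, had an SE above 0.5 and could show only large changes.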

Other observations

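Several TRIM genes moved differently from the expressed protein-coding genes next to them in GENCODE 29 order. TRIM8 rose by 0.30 on the log2 scale, while its neighbours SUFU, an inhibitor of Hedgehog signalling, and ARL3, a GTPase of cilia, fell by 0.44 and 0.88 (edgeR adjusted p = 0.000125 and 7.36e-13). TRIM35 rose by 0.50, and its neighbour PTK2B, a focal adhesion kinase, fell by 2.53 from 30.2 ± 1.65 CPM in WT. TRIM14 had a log2 fold change of -0.04 and did not pass, while its neighbour CORO2A, an actin-binding protein, fell by 4.02. NANS, on the other side of TRIM14, overlaps it on the opposite strand and rose by 0.35 (edgeR adjusted p = 0.00108). With no strand setting stated, reads of TRIM14 and NANS cannot be told apart. TRIM37 did not pass, while the phosphatase gene PPM1E, which overlaps it on the opposite strand, rose by 1.52. TRIM32 fell by 1.08, and its neighbour TLR4, the receptor for bacterial lipopolysaccharide, fell by 1.23. TRIM4 fell by 0.55 and its neighbour ZKSCAN1 by 0.70. Among the TRIM pairs that lie next to each other were TRIM47 and TRIM65, which rose by 0.27 and 0.26, TRIM21 and TRIM68, of which only the latter passed the threshold (log2 fold changes -0.09 and 0.65), and TRIM11 and TRIM17, of which only the former did (0.44 and 0.55). Others were TRIM7 and TRIM41 (0.10 and 0.32) and TRIM26 and TRIM39 (0.03 and 0.49), in each of which the latter passed, and the run of TRIM6, TRIM5 and TRIM22 (-0.88, -0.19 and -1.77), in which TRIM5 did not. The antisense gene TRIM52-AS1 had 77 and 116 counts in WT and 111 and 139 in TMEM9 KD and did not pass (adjusted p = 0.127).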
